A study of Mus musculus with 13 samples.

Results

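Pre-mRNA splicing factors of 5 gene families were examined in single mouse oocytes before and after meiotic maturation. The members were all genes of the deposited count tables whose symbols begin with Srsf, Snrp, Sf3, Prpf or Hnrnp. The rule gave 66 of the 18939 genes with counts: 11 Srsf, 13 Snrp, 9 Sf3, 13 Prpf and 20 Hnrnp genes. The rule uses names alone and no measured value, though it was set with earlier results of these data known.

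The 13 libraries were of single oocytes from C57BL/6 females of 3 to 4 weeks, taken 48 h after PMSG priming. GV oocytes, which are still in prophase with an intact germinal vesicle, were injected with FBL–GFP and H2B-mCherry mRNA, kept at the GV stage for 6 h with Cilostamide, and sorted by the nucleolar pattern of FBL–GFP. This gave 3 SN GV oocytes, with chromatin surrounding the nucleolus, and 3 NSN GV oocytes, without that ring. Released oocytes that matured to metaphase of the second meiotic division gave 4 SN-MII and 3 NSN-MII oocytes. All 4 groups thus carried the injected mRNAs and the same arrest, and MII oocytes of either type are those that completed maturation. They matured in vitro after release, so stage and this further culture cannot be told apart. The labels do not say whether oocytes of a group came from separate females, so p-values measure the spread between these oocytes only. Total counts were between 7140416 and 8846287 per library. Genes with at least 1 count numbered 12699 to 13342 in GV libraries and 11593 to 12522 in MII libraries, and NSN-MII oocyte 3 had the fewest. The members together took 0.60% to 0.656% of the counts at GV and 0.695% to 0.751% at MII. All 12 genes of an oocyte marker list were tested, with summed levels of 16920 to 25600 CPM (counts relative to the TMM-scaled library size). A list of 14 cumulus and granulosa cell genes summed to 62.3 to 92.6 CPM at GV and 99.1 to 188 CPM at MII, most of it Cyp19a1. Cyp19a1 rose from 37.9 to 67.3 CPM at GV to 77.1 to 158 CPM at MII (log2 change 1.04 ± 0.20, adjusted p = 0.000183 by edgeR). Of the other genes of that list, Nr5a2 was at 9.87 to 18.5 CPM at GV and 6.94 to 15.5 CPM at MII. Kitl rose from 1.62 to 7.33 CPM to 4.91 to 13.4 CPM (log2 change 1.26 ± 0.36, adjusted p = 0.0055 by edgeR). Cyp11a1 fell, with at most 46 counts in any library (log2 change −3.34 ± 0.91, adjusted p = 0.00367). Has2 and Inha reached 38 and 37 counts, Fshr, Inhba, Gja1, Amh, Amhr2 and Tnfaip6 at most 19, and Foxl2 and Ptx3 were at 0 in all libraries. The part of these genes in the results was not tested.

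Splicing is carried out by small nuclear ribonucleoproteins (snRNPs), each made of a small nuclear RNA and proteins. The Snrp genes encode the Sm proteins, which form a ring on most of these RNAs, and proteins particular to the U1 and U2 snRNPs. SF3a and SF3b are protein complexes of the U2 snRNP, which recognises the branch site, and most Prpf genes encode proteins of the U4/U6 and U5 snRNPs or factors that act with them. SR proteins (Srsf) bind exons and recruit the spliceosome, and hnRNP proteins coat nascent RNA, often with the opposite effect on an exon. SN GV oocytes are known to have stopped transcription, whereas the study found newly made RNA in NSN GV oocytes and almost none in SN ones. Maturation is known to run on stored mRNAs, many of which gain or lose poly(A) tail. The libraries were primed on poly(A), and an altered amount of an mRNA and an altered tail cannot be told apart in them.

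A sequence known to direct tail lengthening in maturing oocytes is the cytoplasmic polyadenylation element, a short U-rich motif near the mRNA's 3′ end. The letters TTTTAT and TTTTAAT, neither of which contains the other, were searched on the mRNA strand in the last 100 bases of the annotated 3′UTR (GENCODE M21, GRCm38). They occurred in 11 of 63 members with a window of that length (17.5%), and in 20.2% of all 10591 genes tested between stages. Of the members with a motif whose level changed between stages, 5 are shown, so that the letters can be read beside their changes. Each line gives 30 bases of the 3′UTR exon, 5′ to 3′, with the motif copy nearest the 3′ end in capitals. The Sf3a3 line holds a further copy in small letters. The first 3 genes were higher at MII and the last 2 were lower.

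Sf3b1 (chr1:54985223-54985252, minus strand): tttatattgtatTTTTAATatttgttgtat
Snrpd3 (chr10:75537336-75537365, plus strand): ctgtttggtttaTTTTATtgtattaataaa
Hnrnpa2b1 (chr6:51461133-51461162, minus strand): tttaaatacaagTTTTATaaaataaatact
Sf3a3 (chr4:124732380-124732409, plus strand): gttttatctttgTTTTATattaaaaagatc
Hnrnpd (chr5:99955994-99956023, minus strand): atttgcactaaaTTTTATtttctgaaagat

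Of members with the motif 4, Hnrnpll, Prpf8, Sf3a1 and Snrpa1, did not pass the stage test. Among all genes tested, the motif was in 29.8% of those called higher at MII, 20.2% of those not called and 11.1% of those called lower. Among members the shares were 5 of 31, 4 of 16 and 2 of 16, that is 16.1%, 25% and 12.5%, so the order seen over all genes was not seen in this small set. The annotated 3′ end carried AATAAA or ATTAAA in its last 40 bases in 49 of 65 members and in 8 of these 11, and which 3′ ends the oocyte uses was not measured.

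Levels were compared between genes as FPKM, which is scaled by transcript length. Averaged over the 13 oocytes, 9 members were at 100 FPKM or more, 37 between 10 and 100, 17 between 1 and 10, and 3 below 1. The most abundant were Hnrnpc at 367 FPKM and Hnrnpk at 356 FPKM, followed by Snrpe at 294 FPKM and Sf3b1 at 237 FPKM. The neighbours Hnrnpc and Hnrnpk overlapped at GV, with 276 ± 18.2 and 283 ± 29.0 FPKM (SD, n = 6), and at MII, with 446 ± 48 and 419 ± 42.8 FPKM (SD, n = 7). Snrpert was listed at 0 in all libraries and Srsf12 in all but 2, and the filter on low counts removed both from the stage test. The smallest of the measured SR genes, Srsf9, was at 2.49 ± 0.415 FPKM at GV (SD, n = 6).

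**Figure D1:**
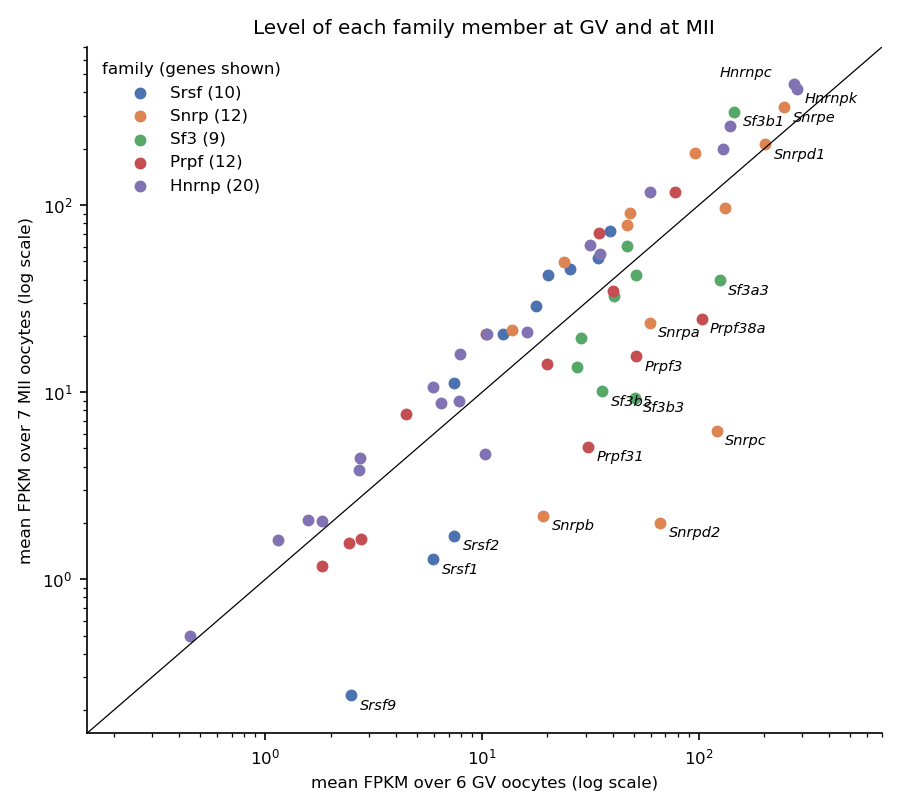
Mean FPKM of the family members described over 6 GV oocytes (x axis, log scale) and 7 MII oocytes (y axis, log scale), coloured by family; the line marks equal levels. Snrpd2 and Snrpc lie farthest below the line, at 66.3 and 121 FPKM at GV against 2.01 and 6.21 FPKM at MII, and the 4 most abundant genes, Hnrnpc, Hnrnpk, Snrpe and Sf3b1, lie above it.

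The stage comparison asks how the share of these mRNAs in a library differed between MII and GV oocytes of both types. The amount of mRNA per oocyte was not measured, so a larger share and a larger amount cannot be told apart. The 10 most abundant genes took 5.47% to 6.60% of the counts at GV and 8.92% to 12.1% at MII. Of the 64 members tested, 32 were called higher at MII (50%) and 16 lower (25%), by edgeR's quasi-likelihood test with an adjusted p under 0.05 over all genes. Over all 11375 genes tested, 31.7% were called higher and 36.8% lower. The median log2 change was 0.63 over the members and −0.10 over all genes. Scaling by library totals instead of TMM moved the median of all genes to −0.39, and the members then split into 27 higher and 21 lower, against 24.0% and 41.5% of all genes under that scaling. That the 6 GV libraries and the 7 MII libraries did not overlap in CPM held for 26 members in the upward and 11 in the downward direction, against 20.9% and 26.5% of all genes. The families differed in how their members were divided: 7 of 10 Srsf genes rose and 3 fell, 6 of 12 Snrp rose and 4 fell, 2 of 9 Sf3 rose and 5 fell, 5 of 13 Prpf rose and 3 fell, and 12 of 20 Hnrnp rose and 1 fell. As a share, the calls upward ran from 22.2% for Sf3 to 70.0% for Srsf, and those downward from 5.00% for Hnrnp to 55.6% for Sf3. These counts are descriptions of small families, and no difference between families was tested.

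**Figure D2:**
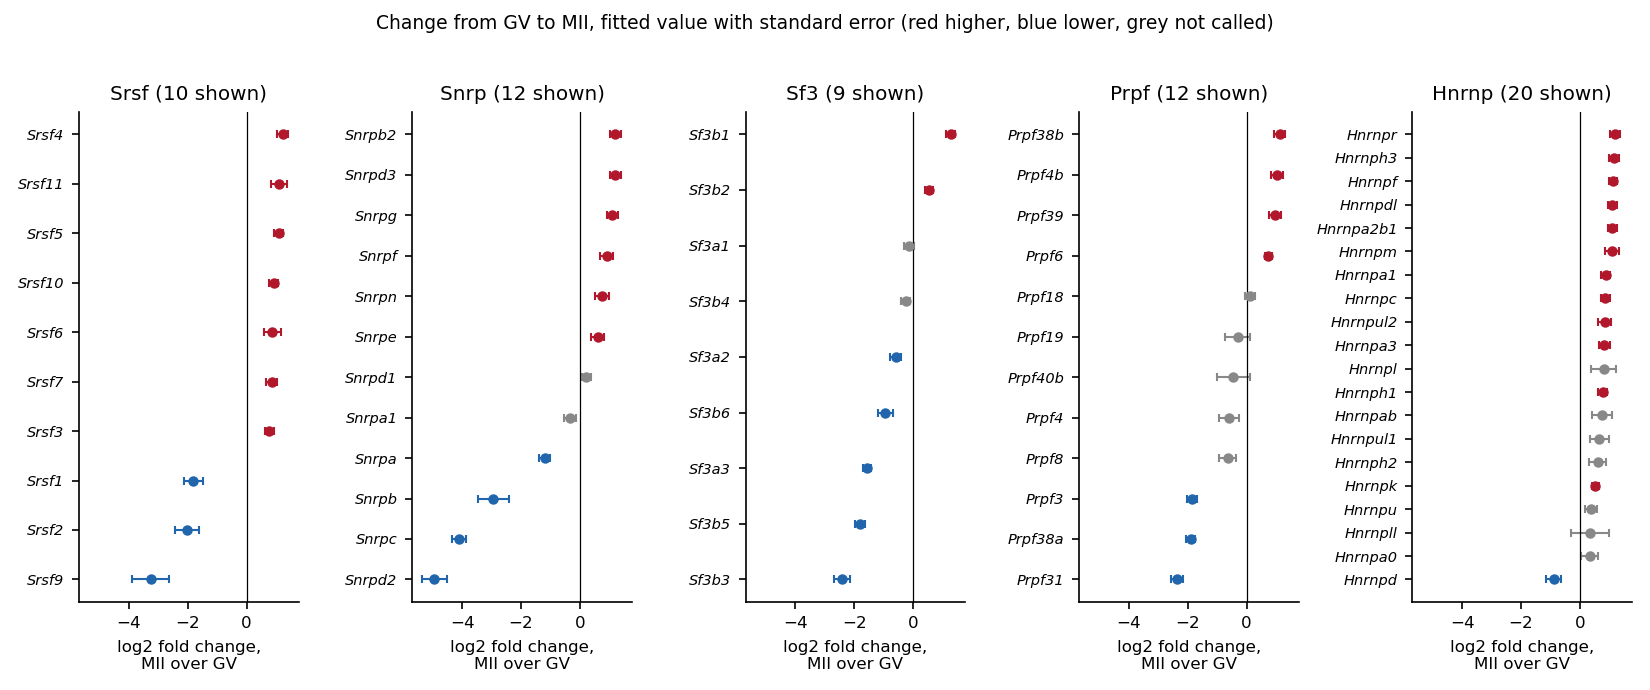
Log2 fold change from GV to MII (x axis) of the members described, by family, with its standard error as a bar; red marks members called higher, blue lower and grey not called. Falls reach −4.94 (Snrpd2), while the largest rise shown is 1.27 (Sf3b1).

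The rises were of similar size and the falls were not. Among the members described the largest rise was 1.27 on the log2 scale (Sf3b1), and 16 of the 32 rises were at least 2-fold. Of the 16 falls, 13 were at least 2-fold, and the largest was 30.7-fold.

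Summed over a family, the FPKM showed where rises and falls offset each other. The 11 Srsf genes summed to 172 ± 14.7 FPKM at GV (SD, n = 6) and 277 ± 24.5 FPKM at MII (SD, n = 7). For the 20 Hnrnp genes the sums were 1029 ± 17.5 FPKM and 1669 ± 120 FPKM. In these 2 families the GV and MII libraries did not overlap. The other families showed overlapping sums, with 1076 ± 200 FPKM at GV and 1106 ± 137 FPKM at MII for Snrp, 552 ± 25.6 and 543 ± 28.8 FPKM for Sf3, and 431 ± 38.0 and 443 ± 14.6 FPKM for Prpf. A steady FPKM sum thus stood over members that had moved in opposite directions. The FPKM values carry no TMM scaling, whereas the calls do. In TMM-scaled CPM the Prpf sums lay higher at MII, at 1156 to 1379 against 886 to 1257 at GV, still with overlap. The CPM sums were 677 to 1134 at GV and 755 to 1234 at MII for Snrp. For Sf3 they were 1294 to 1887 and 1468 to 1949.

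**Figure D3:**
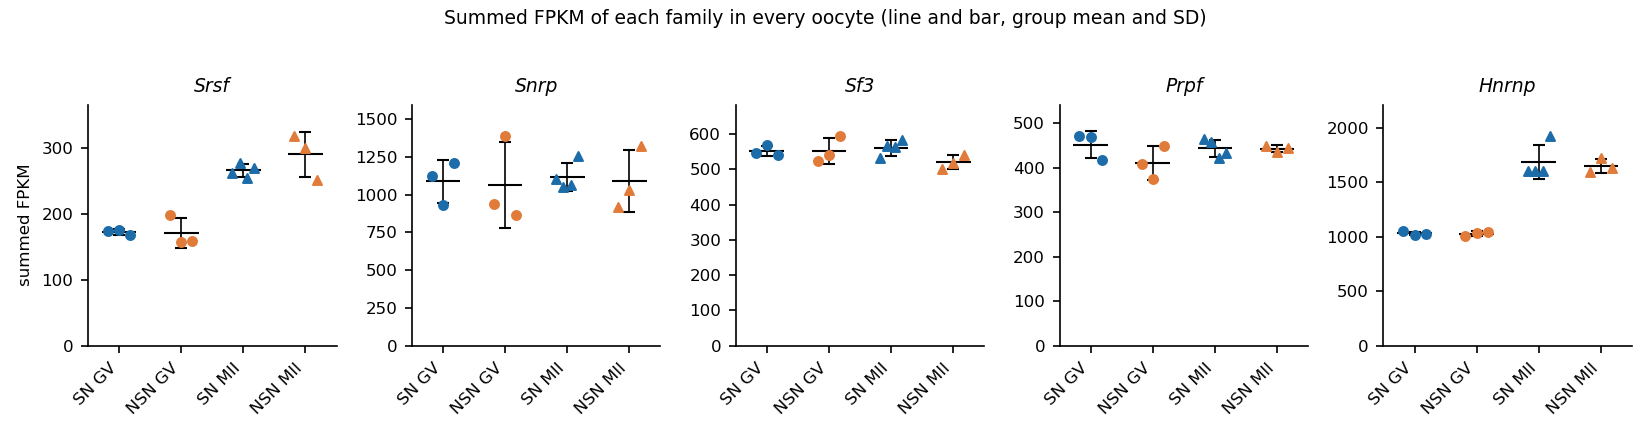
Summed FPKM of each family (y axes, from 0) in every oocyte by group; points are oocytes, lines and bars are group means and SD. Srsf sums lie between 158 and 198 at GV and between 252 and 318 at MII, and Hnrnp sums between 1004 and 1048 at GV and between 1594 and 1923 at MII.

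Among SR protein genes, Srsf1, Srsf2 and Srsf9 fell. Srsf1 encodes the founding SR protein of exon definition, and it had 6.49 to 8.85 CPM (median 8.52) in the 6 GV oocytes and 1.52 to 3.81 CPM (median 2.18) in the 7 MII oocytes. All MII oocytes were below all GV oocytes, and the log2 change was −1.81 ± 0.32 (SE, edgeR; adjusted p = 0.000103). Srsf2, which binds exonic enhancers, was at 2.63 to 16.7 CPM (median 7.88) at GV and at 1.31 to 3.0 CPM (median 2.31) at MII. Here the ranges overlapped, because NSN GV oocyte 1 was low, and the log2 change was −2.04 ± 0.41 (adjusted p = 0.000299). Srsf2 overlaps Mettl23 and Mfsd11 on the opposite strand, and 35.2% of its transcript's 50-base words occur in other genes, so part of its reads cannot be assigned with certainty. Srsf9 was the scarcest, with 2.01 to 3.29 CPM (median 2.47) at GV and 0 to 0.495 CPM (median 0.169) at MII. The MII libraries held 0 to 4 counts of it, and its log2 change of −3.25 ± 0.62 (adjusted p = 0.000197) rests on those few counts.

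The 7 Srsf genes that rose were Srsf3, Srsf4, Srsf5, Srsf6, Srsf7, Srsf10 and Srsf11. Srsf4 rose most, from 25.6 to 57.9 CPM (median 46.2) at GV to 72.7 to 126 CPM (median 108) at MII, without overlap (log2 change 1.23 ± 0.19, adjusted p = 2.24e-05). Antisense gene Gm12992 covers 65.4% of the 50-base words of Srsf4. Srsf5, the most abundant SR gene at 38.7 ± 7.22 FPKM at GV (SD, n = 6) and 73.0 ± 13.8 FPKM at MII (SD, n = 7), had 46.5 to 62.8 CPM at GV (median 51.8) and 93.7 to 135 CPM at MII (median 107). Its ranges were apart too, with a log2 change of 1.09 ± 0.15 (adjusted p = 5.92e-06). Srsf10, a splicing repressor when dephosphorylated, was at 43.9 to 93.5 CPM (median 71.2) at GV and 114 to 179 CPM (median 133) at MII (log2 change 0.92 ± 0.16, adjusted p = 7.84e-05). Srsf3, the shortest SR protein, was at 82.3 to 106 CPM (median 85.6) and 121 to 208 CPM (median 154), with a log2 change of 0.77 ± 0.15 (adjusted p = 0.000328). The call of Srsf6 was lost under library totals and in limma on log2(FPKM + 0.1). For Srsf3 and Srsf10 every MII oocyte was again above every GV oocyte.

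The products of the Sm genes sit side by side in the same ring, and their genes changed in both directions. Of the 8, 5 rose, 2 fell and Snrpd1 did not pass the test, with log2 changes from −4.94 to 1.2. Snrpd2 (chr7:19149722-19153542) had 65.0 to 125 CPM (median 87.8) in the GV oocytes and 0.676 to 8.45 CPM (median 2.47) in the MII oocytes. The highest MII value, in NSN-MII oocyte 1, was far below the lowest GV value, and the log2 change was −4.94 ± 0.42 (adjusted p = 2.44e-08). Snrpd3 went the other way, from 25.4 to 46.2 CPM (median 35.1) to 61.8 to 109 CPM (median 72.8), without overlap (log2 change 1.2 ± 0.19, adjusted p = 3.25e-05). Within a library, the FPKM of Snrpd2 was 1.96 to 4.99 times that of Snrpd3 at GV (median 2.70) and 0.00605 to 0.146 times at MII (median 0.0326). Snrpd2 was thus the higher of these 2 partners in every GV oocyte and the lower in every MII oocyte, which were different cells.

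Snrpb encodes SmB/B′, and Snrpn encodes its close relative SmN, made from an imprinted locus. In CPM, Snrpb was at 8.93, 4.85 and 28.3 in the SN GV oocytes and 32.0, 37.2 and 6.96 in the NSN GV oocytes, and at 0.657 to 6.06 (median 2.12) in the MII oocytes. GV oocytes of either type differed widely among themselves, their lowest value fell within the MII range, and the log2 change was −2.94 ± 0.52 (adjusted p = 8.49e-05). Snrpn was at 17.3 to 39.2 CPM (median 25.3) at GV and 21.6 to 62.6 CPM (median 44.3) at MII (log2 change 0.75 ± 0.24, adjusted p = 0.0109), with NSN-MII oocyte 3 inside the GV range. Snrpn shares 26.2% of its 50-base words with other genes, Snurf and Gm38393 of its own locus among them, and its call was lost under scaling by library totals and in limma on FPKM.

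Of the remaining ring members, Snrpg rose by 1.09 ± 0.19 on the log2 scale (adjusted p = 7.61e-05), from 24.8 to 49.0 CPM (median 34.2) to 62.7 to 107 CPM (median 69.1), without overlap. Snrpe, the most abundant Snrp gene, was at 248 ± 64.9 FPKM at GV (SD, n = 6) and 333 ± 59.5 FPKM at MII (SD, n = 7). Its CPM ranges of 57.4 to 122 (median 80.8) and 89.6 to 185 (median 117) overlapped, and the log2 change was 0.60 ± 0.21 (adjusted p = 0.0193). That call was lost under library totals, and when SN GV oocyte 2, NSN GV oocyte 1 or NSN-MII oocyte 3 was left out. Snrpf had a log2 change of 0.91 ± 0.21, but 89.5% of its 50-base words occur elsewhere, mostly in Ccdc38 on the opposite strand. Snrpd1 was at 202 ± 38.9 FPKM at GV and 212 ± 23.0 FPKM at MII (log2 change 0.22 ± 0.17, adjusted p = 0.245).

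**Figure D4:**
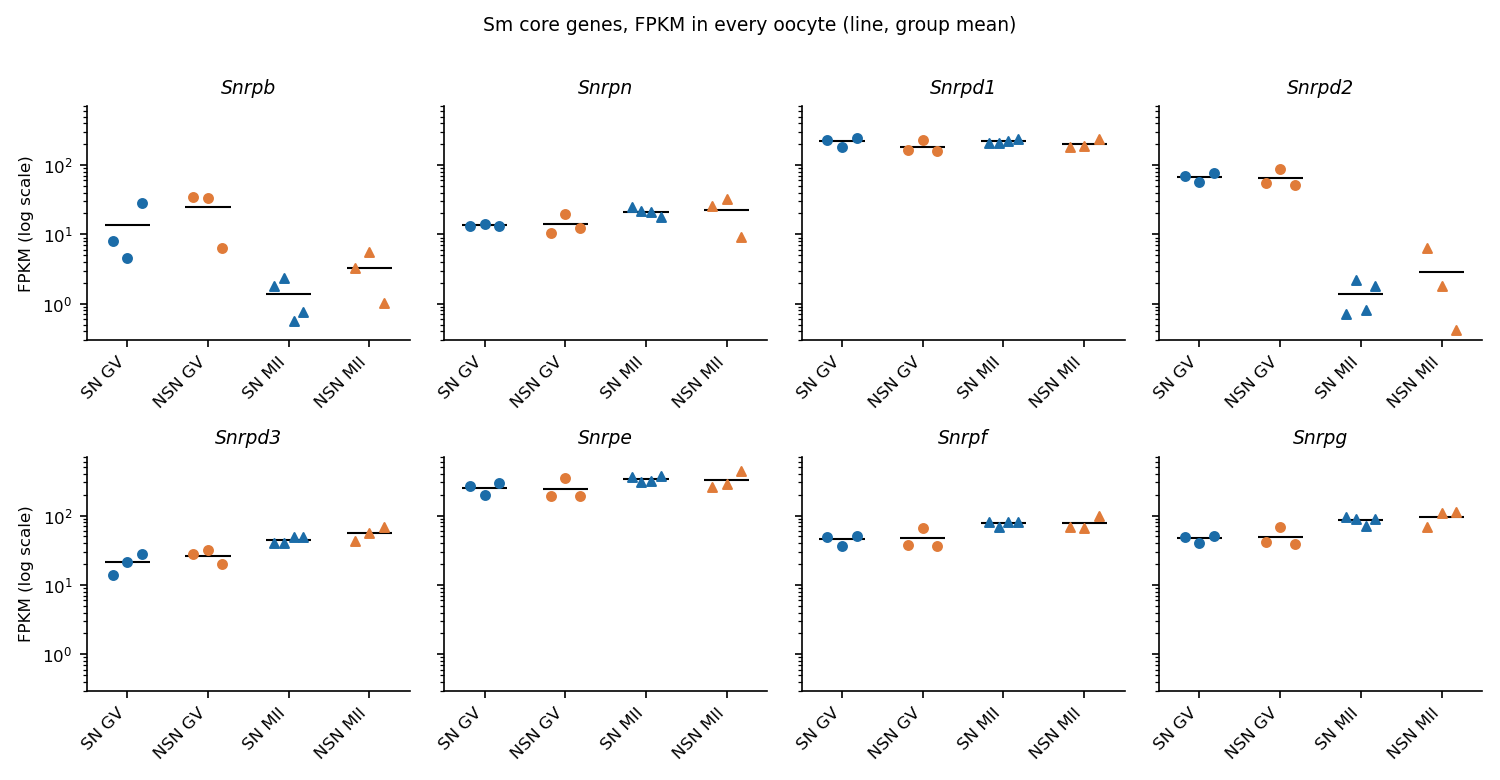
FPKM of the 8 Sm genes (y axes, log scale) in every oocyte of the 4 groups; points are oocytes and lines group means. Snrpd2 and Snrpb drop at MII, to 2.01 and 2.19 FPKM on average, while the other 6 genes lie within or above their GV range apart from 1 low NSN-MII oocyte in Snrpn.

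Of the 4 Snrp genes for proteins particular to U1 or U2, both of U1 fell, and of the U2 genes Snrpb2 rose and Snrpa1 did not pass. Snrpc (chr17:27838150-27851968) encodes U1-C, which helps to pair the U1 RNA with the 5′ splice site. It was at 55 to 114 CPM (median 73.7) at GV and 2.53 to 8.45 CPM (median 5.13) at MII, a log2 change of −4.11 ± 0.23 (adjusted p = 2.46e-10) or a 17.3-fold fall. Snrpa, which encodes the U1-A protein, fell by 1.19 ± 0.19 on the log2 scale (adjusted p = 3.14e-05), from 56.8 to 99.0 CPM (median 71.5) to 23.4 to 42.0 CPM (median 31.9). Both had no overlap between stages, and 26.7% and 31.1% of their 50-base words occur in other genes. Snrpb2, for the U2-B″ protein, rose by 1.21 ± 0.18 on the log2 scale (adjusted p = 1.23e-05), from 78.1 to 139 CPM (median 113) to 196 to 345 CPM (median 232). Snrpa1, for U2-A′, had a log2 change of −0.33 ± 0.19 (adjusted p = 0.140), with 132 ± 17.1 FPKM at GV and 96.7 ± 22.7 FPKM at MII. Snrpa1 passed as lower under library totals, with the replicate number as a block, in limma on FPKM, and without SN-MII oocyte 4 or NSN-MII oocyte 3.

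In the SF3 complexes Sf3b1 and Sf3b2 rose, 5 genes fell, and Sf3a1 and Sf3b4 did not pass the test. Sf3b1, which encodes the large SF3b subunit that holds the branch site, had 318 to 497 CPM (median 411) at GV and 816 to 1221 CPM (median 934) at MII. These ranges were apart, and the log2 change was 1.27 ± 0.16 (adjusted p = 1.82e-06). Sf3b3, for a scaffold subunit of SF3b, fell from 84.8 to 322 CPM (median 251) to 16.9 to 56.7 CPM (median 49.5), a log2 change of −2.42 ± 0.28 (adjusted p = 8.94e-07). NSN GV oocyte 2 had the lowest Sf3b3 value of its stage, and it was still above all MII oocytes. The FPKM of Sf3b3 relative to Sf3b1 in the same library was 0.107 to 0.442 at GV (median 0.396) and 0.00979 to 0.0416 at MII (median 0.0329). Sf3b5, which encodes a small SF3b subunit, fell by 1.82 ± 0.17 on the log2 scale (adjusted p = 8.32e-08), from 98.7 to 198 CPM (median 143) to 24.7 to 58.9 CPM (median 51.4). Sf3b6, for the subunit next to the branch adenosine, was at 18.9 to 40 CPM (median 22.2) at GV and 9.29 to 25.1 CPM (median 13.2) at MII, overlapping ranges with a log2 change of −0.94 ± 0.26 (adjusted p = 0.00391). Sf3b2 rose by 0.53 ± 0.14 on the log2 scale (adjusted p = 0.00273), with overlap, and lost its call under scaling by library totals. Sf3b4 had a log2 change of −0.26 ± 0.16 (adjusted p = 0.152), and passed as lower under library totals, in limma on FPKM and without NSN GV oocyte 3.

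The 3 SF3a genes did not move alike. Sf3a3 had 166 to 245 CPM (median 234) at GV and 52.7 to 109 CPM (median 79.3) at MII, without overlap (log2 change −1.57 ± 0.15, adjusted p = 1.06e-07). Sf3a2 changed less, by −0.60 ± 0.20 (adjusted p = 0.0131), with overlapping ranges, and the call was lost without NSN GV oocyte 3. Sf3a1 was at 51.1 ± 12.6 FPKM at GV (SD, n = 6) and 42.4 ± 4.82 FPKM at MII (SD, n = 7), with a log2 change of −0.14 ± 0.16 (adjusted p = 0.450), and it passed as lower under library totals.

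The Prpf genes of the U4/U6 snRNP were mostly lower at MII. Prpf31, which encodes a U4/U6 protein needed to join U5, had 59.8 to 77.7 CPM (median 68.4) at GV and 10.6 to 18.6 CPM (median 11.9) at MII. The log2 change was −2.36 ± 0.19 (adjusted p = 1.29e-08), with little spread at either stage. Prpf3, another U4/U6 protein, fell by 1.85 ± 0.18 on the log2 scale (adjusted p = 1.68e-07), from 94.1 to 132 CPM (median 113) to 21.4 to 41.4 CPM (median 32.1). Prpf4, the partner of Prpf3, was scarce, at 2.77 ± 0.909 FPKM at GV and 1.64 ± 0.920 FPKM at MII, and had a log2 change of −0.60 ± 0.32 (adjusted p = 0.113), which passed under library totals and without SN-MII oocyte 2. Prpf6, which bridges U5 and U4/U6 and was the most abundant Prpf gene, rose from 206 to 284 CPM (median 239) to 374 to 487 CPM (median 400), by 0.74 ± 0.13 on the log2 scale (adjusted p = 8.49e-05). Prpf8, whose product lies at the centre of the spliceosome, was at 173, 241 and 119 CPM in SN GV oocytes, 103, 53.1 and 255 CPM in NSN GV oocytes, and 55.4 to 150 CPM (median 112) in MII oocytes. The spread among GV oocytes covered the MII range, and the log2 change of −0.64 ± 0.29 did not pass (adjusted p = 0.0604). It passed with DESeq2, with DESeq2 size factors and under library totals, and when SN GV oocyte 3, NSN GV oocyte 2 or NSN-MII oocyte 1 was left out.

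The relatives Prpf38a and Prpf38b, of which the former takes part in activating the spliceosome, moved apart. Prpf38a fell from 116 to 193 CPM (median 150) to 32.9 to 45.6 CPM (median 42.6), a log2 change of −1.89 ± 0.15 (adjusted p = 1.27e-08). Prpf38b rose from 32.2 to 80.2 CPM (median 65.9) to 109 to 150 CPM (median 138), by 1.12 ± 0.19 on the log2 scale (adjusted p = 6.51e-05). Per library, Prpf38a was at 2.08 to 5.80 times the FPKM of Prpf38b at GV and at 0.289 to 0.465 times at MII, so the more abundant relative changed. Prpf4b, which encodes a kinase of the spliceosome, rose by 1.03 ± 0.21 on the log2 scale (adjusted p = 0.000348), from 19.0 to 44.5 CPM (median 25.3) to 45.4 to 65.2 CPM (median 61.9). Prpf39, a U1-associated protein gene, had a log2 change of 0.97 ± 0.21 (adjusted p = 0.000606). Prpf19, a ubiquitin ligase that activates the spliceosome, was scarce, with 1.37 to 7.40 CPM at GV and 1.5 to 5.01 CPM at MII (log2 change −0.30 ± 0.43, adjusted p = 0.539). Prpf18, a factor of the later catalytic step, had a log2 change of 0.12 ± 0.18 (adjusted p = 0.571), which turned negative on FPKM and under library totals. The scarce Prpf40b did not pass either (log2 change −0.45 ± 0.57, adjusted p = 0.495).

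The Hnrnp genes were the most uniform, with 12 rises between 0.52 and 1.19 on the log2 scale and 1 fall. Hnrnpr rose most, from 15.9 to 22.1 CPM (median 20.5) to 38.5 to 57.5 CPM (median 46.1), by 1.19 ± 0.17 on the log2 scale (adjusted p = 9.73e-06). Next were Hnrnph3, from 15.4 to 23.8 CPM (median 22.1) to 42.4 to 50.7 CPM (median 47.1), and Hnrnpf, from 203 to 279 CPM (median 250) to 443 to 606 CPM (median 555). Both are relatives of Hnrnph1 and bind runs of G, and their log2 changes were 1.17 ± 0.17 (adjusted p = 9.69e-06) and 1.13 ± 0.13 (adjusted p = 1.27e-06). Of the words of Hnrnpf, 67.3% occur in other genes, mainly annotated copies. Hnrnpa2b1 rose by 1.09 ± 0.15 on the log2 scale (adjusted p = 8.30e-06) and Hnrnpa1, which often represses exons, by 0.87 ± 0.15 on the log2 scale (adjusted p = 6.44e-05). Hnrnpa1 had 146 to 215 CPM (median 191) at GV and 275 to 449 CPM (median 336) at MII, and shares 46.4% of its words with copies.

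The abundant Hnrnpc, which binds runs of U, was at 318 to 441 CPM (median 427) at GV and 597 to 941 CPM (median 699) at MII (log2 change 0.86 ± 0.15, adjusted p = 5.75e-05). Hnrnpk, which binds runs of C, had 548 to 612 CPM (median 558) and 734 to 1025 CPM (median 808), the smallest rise at 0.52 ± 0.12 (adjusted p = 0.00106). The ranges were apart for both, though the call of Hnrnpk was lost under library totals. Of the words of Hnrnpk, 40.6% occur in other genes, mostly in Gm7964. Hnrnpdl, Hnrnpm, Hnrnpul2, Hnrnpa3 and Hnrnph1 made up the rest of the rises, with log2 changes of 1.10, 1.08, 0.83, 0.83 and 0.77, and the counts of Hnrnpa3 are uncertain because 91.0% of its words occur in copies, and its call was lost in limma on FPKM. Hnrnpd, known as AUF1 for promoting the decay of AU-rich mRNAs, was the only faller, at 9.37 to 18.5 CPM (median 13) at GV and 5.24 to 10.7 CPM (median 5.91) at MII (log2 change −0.89 ± 0.27, adjusted p = 0.00674), with overlap. The 7 that did not pass, Hnrnpa0, Hnrnpab, Hnrnph2, Hnrnpl, Hnrnpll, Hnrnpu and Hnrnpul1, had log2 changes of 0.33 to 0.81. Hnrnpu, a nuclear scaffold protein gene, was at 7.80 ± 2.31 FPKM at GV and 9.0 ± 2.34 FPKM at MII (log2 change 0.37 ± 0.21, adjusted p = 0.126), and it passed without NSN GV oocyte 3. Hnrnph2 passed without SN-MII oocyte 3 or NSN-MII oocyte 2, Hnrnpul1 without NSN GV oocyte 3, and Hnrnpab with DESeq2 and without SN GV oocyte 2 or SN-MII oocyte 4.

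Transcript features were set beside these changes as descriptions across genes, which are not independent replicates. Over 64 members the Spearman correlation of the log2 change from GV to MII was 0.35 with 3′UTR length, 0.19 with transcript length and −0.44 with GC content. Over 11215 genes tested it was 0.34, 0.39 and −0.33. Members that rose had a median 3′UTR of 1129 bases and a median GC content of 44.7%, against 458 bases and 49.9% for those that fell. All points share the same 13 libraries and their amplification, and the part of length and base composition in the counts was not tested.

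NSN and SN oocytes were then compared within each stage, which is the comparison the study was designed for. At GV none of the 64 members tested was called by edgeR's quasi-likelihood test, and none had an unadjusted p under 0.05, while 0 of 10839 genes were called and 1.69% had such a p. DESeq2 called none either. The smallest p was that of Hnrnph2, which binds runs of G. It was at 14.3, 18.6 and 20.4 CPM in SN GV oocytes and 7.88, 12 and 14.2 CPM in NSN GV oocytes, values that just did not overlap (log2 change −0.64 ± 0.32, adjusted p = 1.0). Srsf10 was at 89.6, 93.5 and 63.9 CPM in SN and 43.9, 68.3 and 74.0 CPM in NSN GV oocytes (log2 change −0.40 ± 0.23, adjusted p = 1.0), and these values overlapped. Prpf38a had a log2 change of −0.29 ± 0.18 and Hnrnph1 of 0.29 ± 0.19 (adjusted p = 1.0 each). Hnrnph2 was the only member without overlap between types at GV, where 6.03% of all genes had none (2.92% with NSN oocytes lower and 3.11% with NSN oocytes higher). The median size of the log2 change was 0.09 over the members and 0.20 over all genes.

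At MII again no member of 63 tested was called, while 0.279% of 10028 genes were. Of the members, 5 had an unadjusted p under 0.05, against 9.39% of all genes. In 8 members all NSN-MII oocytes were below all SN-MII oocytes, against 5.56% of all genes, and in none were they all above, against 4.61% (10.2% in both directions together). These were Sf3a1, Sf3a3, Sf3b4, Sf3b5, Prpf18, Snrpc, Srsf10 and Hnrnpa2b1, so that 4 of the 9 Sf3 genes were among them. Sf3b4 (chr3:96172332-96177564), whose product contacts the intron upstream of the branch site, was at 79.5, 80.0, 76.4 and 104 CPM in SN-MII oocytes and at 45.1, 46.9 and 48 CPM in NSN-MII oocytes. The log2 change was −0.87 ± 0.19 (adjusted p = 0.0891). In GV oocytes Sf3b4 was at 73.5, 68.3 and 74.0 CPM (SN) and 90.7, 90.8 and 54.6 CPM (NSN), without a difference that passed. Of its 50-base words, 51.2% occur in other genes, chiefly its annotated copy Gm7935.

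Sf3b5, a gene of 1 exon (chr10:13005343-13009183), was at 56.5, 51.4, 57.7 and 58.9 CPM in SN-MII and 34.3, 29.6 and 24.7 CPM in NSN-MII oocytes (log2 change −0.92 ± 0.21, adjusted p = 0.111). MII oocytes of both types were thus below all GV oocytes in Sf3b5, with the lowest levels in NSN-MII oocytes. DESeq2 called Sf3b4 and Sf3b5 lower in NSN-MII oocytes (adjusted p = 0.00211 each), where it called 217 genes in all and edgeR 28. Prpf18 was at 128, 111, 98.7 and 124 CPM in SN-MII and 78.2, 61.2 and 94.6 CPM in NSN-MII oocytes (log2 change −0.57 ± 0.19, adjusted p = 0.298). Sf3a3 was at 90.8, 82.2, 79.3 and 109 CPM in SN-MII and 58.9, 52.7 and 74.8 CPM in NSN-MII oocytes (log2 change −0.55 ± 0.19, adjusted p = 0.342). In each of these genes the groups were apart, by margins smaller than the spread within a group for Prpf18 and Sf3a3.

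The only member higher in NSN-MII oocytes with an unadjusted p under 0.05 was Srsf11, named here after its values were seen, at 38.6, 51.3, 43.4 and 34.4 CPM in SN-MII and 71.8, 83.6 and 45.1 CPM in NSN-MII oocytes (log2 change 0.68 ± 0.25, adjusted p = 0.382). NSN-MII oocyte 3, the library with the fewest genes detected, lay within the SN-MII range. Without it edgeR called Sf3b4 (adjusted p = 0.0374) and Srsf11 (adjusted p = 0.0422), and 240 genes over all, against 28 with it.

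**Figure D5:**
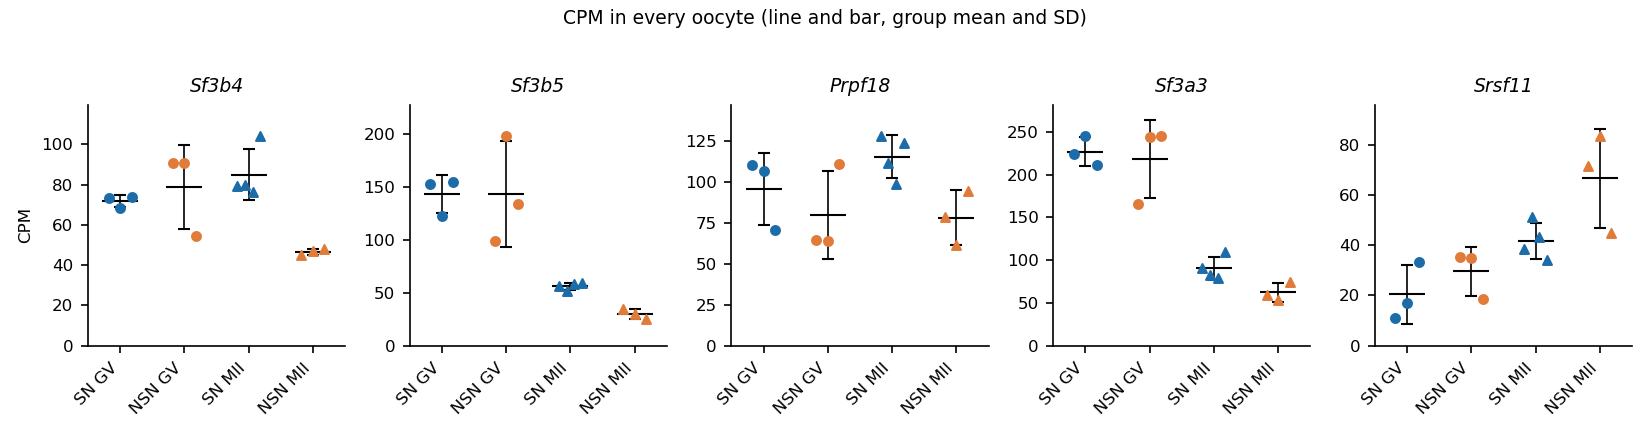
CPM of Sf3b4, Sf3b5, Prpf18, Sf3a3 and Srsf11 (y axes, from 0) in every oocyte by group; points are oocytes, lines and bars are group means and SD. In the first 4 genes all 3 NSN-MII oocytes lie below all 4 SN-MII oocytes, while the GV groups overlap; none of these differences was called by edgeR.

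Whether the difference between types changed with stage was tested as an interaction in a model of all 13 libraries. No member was called, as against 0.0176% of 11375 genes, and 2 members had an unadjusted p under 0.05, against 5.30% of all genes. These were Sf3b4 (log2 difference −1.0 ± 0.31, adjusted p = 0.642) and Sf3b5 (log2 difference −0.93 ± 0.33, adjusted p = 0.772). Snrpc followed with −0.89 ± 0.43 (adjusted p = 0.953); it was at 5.31, 5.91, 5.13 and 8.45 CPM in SN-MII and 3.81, 3.46 and 2.53 CPM in NSN-MII oocytes, all far below either GV group. Hnrnpu was the fourth, with 0.71 ± 0.41 (adjusted p = 1.0). The GV and MII effects of these genes were therefore not shown to differ.

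Other genes of the spliceosome, its assembly and its regulation were read from 9 lists of 112 symbols outside the 5 families. Of these symbols 111 were in the count tables and 108 were tested between stages. Of those tested, 37 rose (34.3%) and 41 fell (38.0%), close to the 31.7% and 36.8% of all genes. None was called between types at GV or in the interaction, and 1 was called at MII. This was Snu13, which binds U4 RNA and recruits Prpf31, at 161, 171, 172 and 226 CPM in SN-MII and 80.5, 92.5 and 94.1 CPM in NSN-MII oocytes (log2 change −1.04 ± 0.17, adjusted p = 0.0348). Proteins of the LSm ring and the tri-snRNP were mostly lower: 9 of 13 fell and 2 rose, with the largest fall in Usp39 (−3.74 ± 0.22) and the largest rise in Snrnp27 (1.25 ± 0.16). The LSm proteins form the ring of U6 that parallels the Sm ring, and Lsm2, Lsm3, Lsm4, Lsm5 and Lsm6 had log2 changes between −3.16 and −1.60. The other LSm genes of the list, Lsm7 (−0.58 ± 0.25, adjusted p = 0.0502) and Lsm8 (−0.47 ± 0.43, adjusted p = 0.348), did not pass. Among U1, U2AF and U5 proteins outside the families 6 of 13 fell and 2 rose, from Txnl4a (−3.12 ± 0.26) to U2surp (1.61 ± 0.16). In the SMN complex, which loads Sm proteins onto RNA, and its assembly partners 8 of 14 fell and 2 rose, from Gemin7 (−4.40 ± 0.25) to Smn1 (1.46 ± 0.19).

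Of the SR-related proteins 8 of 11 rose and none fell, by up to 1.62 ± 0.17 for Srrm1. Of the kinases that phosphorylate SR proteins 4 of 8 rose and 2 fell, from Clk4 (−2.05 ± 0.37) to Srpk2 (1.54 ± 0.16). The remaining lists were divided. Of the Prp19 complex and splicing helicases 8 of 18 rose and 7 fell, with Xab2 lowest (−5.95 ± 0.43) and Cdc40 highest (1.29 ± 0.13). Of the exon junction complex 4 of 8 rose and 3 fell, from Upf3a (−2.73 ± 0.40) to Rnps1 (1.35 ± 0.14). Of 7 minor spliceosome proteins tested 2 rose and 3 fell, from Zmat5 (−5.96 ± 0.31) to Snrnp48 (1.2 ± 0.21). Of 16 hnRNP proteins with other symbols 5 rose and 3 fell, with the largest rise in Ptbp2 (1.39 ± 0.17).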

How the data were processed

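Poly(A)-primed SMART-seq2 libraries of 13 single oocytes were analysed. The authors trimmed reads (Trim Galore 0.4.4), aligned them to mm10 (Bowtie2 2.3.5) and estimated gene levels with RSEM 1.2.28; their processing notes also name DESeq2 1.20.0. The authors deposited expected counts per stage, and FPKM values of all libraries in 1 table, by gene symbol. Strand-specific counting and molecular identifiers are not given in the sources used here.

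Counts were rounded, filtered with filterByExpr, scaled by TMM and tested with edgeR 4.0.16 (R 4.3.3; robust quasi-likelihood), with Benjamini-Hochberg adjustment over all genes. NSN and SN oocytes were compared within a stage, MII and GV over all libraries, and the interaction in 1 model. SE is the log2 change divided by the root of F. Alternatives were DESeq2 1.42.0 and its size factors, library totals, no filter, limma 3.58.1 on log2(FPKM + 1) or log2(FPKM + 0.1), a 1.5-fold minimum, replicate blocks and leaving out each library. No pair of libraries agreed within sampling noise. The steps were tested on simulated data. Counting error is only part of each error.

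Members and lists were chosen with earlier results of these data known. Genes named with full statistics were, per family, up to 3 called rises and 3 called falls without overlap and the most abundant gene, the 4 smallest p of each type contrast, and 16 genes fixed by role. A few genes and a sequence that these rules name are not reported here, though counts over families and lists include them. Coordinates and 50-base words are from GENCODE M21 (GRCm38), using 1 principal transcript a gene. In 16 of 65 members 25% or more of these words occur in other genes. Srsf3, Srsf5, Snrpe, Hnrnpab and Hnrnpm are among these, without a remark at their values.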

Additional observations from a re-analysis of the deposited data

Results flagged for a closer look

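In the 4 SN-MII libraries, 5 of the 41 named genes described had a highest or lowest oocyte set apart from the rest by Dixon's criterion, in each case SN-MII oocyte 4. Its level was highest for Hnrnpc (928 CPM, others 670 to 714), Prpf6 (487 CPM, others 395 to 408), Sf3b4 (104 CPM, others 76.4 to 80.0) and Snrpd3 (95.8 CPM, others 69.8 to 72.8). It was lowest for Prpf38b (109 CPM, others 136 to 141). Chance sets apart about 1 group in 20. This library had the smallest TMM factor of its group, 0.83 against 0.91 to 0.93, and the fewest genes detected, 11830 against 12251 to 12489; the part of these in the values was not tested. Without it the members called between stages were 33 higher and 17 lower.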

How the results depend on the processing

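All 48 members called between stages kept their direction under every alternative. Calls lost are named with the genes, and Hnrnpk and Sf3b2 also fell short of the 1.5-fold minimum. The counts of members called higher at MII lay between 27 (library totals) and 34, and those lower between 16 and 21 (library totals); leaving out 1 library gave 31 to 34 and 16 to 17. At MII, members called between types were 0 in the main test, 2 with DESeq2, 3 with an unadjusted p and a 1.5-fold change, and 0 to 2 when 1 library was left out; in the interaction they were 0, and 2 with an unadjusted p and a 1.5-fold change (0 in each fit without 1 library). At GV they were 0 under every alternative. Prpf18 turned from a log2 change between stages of 0.12 to −0.17 with library totals, −0.25 with limma on log2(FPKM + 1) and −0.26 with log2(FPKM + 0.1), and Sf3a1 ranged from −0.24 to 0.041 without 1 library. Prpf18 was not called in any of these fits, nor Sf3a1 in any fit without 1 library, but Sf3a1 was called lower with library totals (log2 change −0.43). The causes were not tested. Without NSN-MII oocyte 3, Sf3b4 and Srsf11 were called at MII; over all alternatives that left out 1 library the adjusted p of Sf3b4 lay between 0.0374 and 0.264 and that of Sf3b5 between 0.0605 and 0.307.

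Deviations from the group mean correlated at −0.394 to 0.093 between same-numbered SN and NSN libraries. Between same-numbered GV and MII libraries of 1 type they correlated at −0.053 to 0.164. With 3 or 4 libraries a group, these values cannot show whether same-numbered oocytes shared a female or a batch. With the replicate number as a block, 31 members were called higher and 17 lower at MII (Snrpe was lost and Snrpa1 gained), and 0 in each of the other comparisons. With 3 or 4 oocytes a group, differences between types of the size seen in most members could not be told from the spread between oocytes, and members with few counts, such as Srsf9, Hnrnpll and Prpf40b, had the largest errors.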

Other observations

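Among the 6 GV libraries, NSN GV oocyte 2 held the highest CPM of 11 of the 12 Snrp genes tested, from Snrpb at 37.2 CPM to Snrpd1 at 171 CPM, and NSN GV oocyte 1 the lowest of 8. NSN GV oocyte 2 was at the same time the lowest in 17 of the 64 members tested, Sf3b3 (84.8 CPM against 209 to 322 in the other GV oocytes), Prpf8 (53.1 CPM) and Srsf6 (4.87 CPM) among them. The 22 members for which it was highest had a median transcript length of 1776 bases, and the 17 for which it was lowest one of 3522 bases. At MII, NSN-MII oocyte 3 was highest in 6 of the 12 Snrp genes. These patterns were noticed in the data and belong to single oocytes; both GV libraries are of the same group, so they enter the NSN and SN comparison as spread.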
